A study of Mus musculus with 40 samples.

Results

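P2ry10 encodes a G protein-coupled receptor of lymphocytes, and it is described here with 7 other receptors for lipid ligands: S1pr1, S1pr2, S1pr3, S1pr4, Gpr183, Gpr174 and Lpar6. The members were taken by symbol, as every probe set whose platform annotation names exactly 1 of these 8 genes, which gave 10 of the 45141 probe sets on the array. S1pr3 and Gpr183 had 2 probe sets each and the other genes 1. P2ry10 was chosen by its own measured differences between constructs and isolation batches in earlier results of these data, so its values are given as a description with no test. S1pr2 was likewise known from those results to be higher with PAX5-WT than with the vector, and that difference is not independent evidence.

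The 40 arrays hold total RNA of J558LuM cells, a mouse plasmacytoma line, and each array had its own transduction number in the labels. PAX5-WT, PAX5-G183S and PAX5-G183V were each carried by the cells of 7 arrays. PAX5-P80R and PAX5-Δ2-6 had 6 arrays apiece, and the empty vector MIR had 7. No other treatment is named. PAX5 is the transcription factor that sets B cell identity and that plasma cells shut off. P80R lies in its DNA-binding paired domain, the G183 changes lie in its octapeptide motif, and Δ2-6 is given by name only. The title concerns inherited PAX5 changes in pre-B cell leukaemia, and each construct is set against the vector and against PAX5-WT. All groups are the same cell line, so the spread is that between transductions of 1 line and not between animals. The only probe set of Pax5 had its highest mean in PAX5-Δ2-6 (5.14) and its lowest in MIR (4.47) on the log2 scale, and whether it detects the transduced construct was not tested.

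These receptors read lipids that cells release into tissue and blood. Sphingosine 1-phosphate is sensed by the S1pr family: S1pr1 draws lymphocytes out of lymphoid organs, S1pr2 couples through the G protein subunit Gna13 and keeps B cells inside germinal centres, S1pr3 helps to place marginal zone B cells, and S1pr4 is found mainly on blood cells. P2ry10 and Gpr174 are receptors for lysophosphatidylserine, Lpar6 is a receptor for lysophosphatidic acid, and Gpr183, also called EBI2, follows oxysterols and guides activated B cells. P2ry10 is also known from mouse B cells as a target of the Ets family factors PU.1 and Spi-B.

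P2ry10 lies on chromosome X in a row of genes for related receptors, in the order Lpar4, P2ry10, P2ry10b and Gpr174. RefSeq windows of 300 bases, from 250 bases before to 50 bases after a transcript start (build GRCm38.p6), were at hand for 7 of the 8 members in 8 windows, and S1pr1 had none. A set of 3 short motifs was searched on both strands: GCGTGAC, a core of the PAX5 paired-domain site, GAGGAAGT, a PU.1 site, and CAGGTG, an E-box bound by E proteins. The PU.1 letters were found in 1 of 8 member windows, that of the downstream P2ry10 start, and they occur in 3.2% of all 32851 windows. They were also found near a start of the neighbour P2ry10b. The PAX5 core was found in 1 of 8 member windows, that of S1pr2, against 2.09% of all windows. The E-box was in 2 of 8, S1pr2 and S1pr4, against 20.2% of all. The 3 windows that hold the PU.1 or PAX5 letters are shown because they belong to P2ry10, its neighbour and S1pr2, on which the results below turn, in lower case with the matches in capitals, which read ACTTCCTC, GTCACGC and CACCTG on the printed strand. A match describes these letters only, since binding was not measured.
P2ry10, chrX:107089083-107089382, plus strand: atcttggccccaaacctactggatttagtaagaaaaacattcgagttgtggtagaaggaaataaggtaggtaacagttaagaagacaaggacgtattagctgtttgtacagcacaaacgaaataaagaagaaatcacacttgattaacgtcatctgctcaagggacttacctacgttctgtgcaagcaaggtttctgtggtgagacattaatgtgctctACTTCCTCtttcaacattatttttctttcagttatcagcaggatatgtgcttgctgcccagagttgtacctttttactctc
P2ry10b, chrX:107149365-107149664, plus strand: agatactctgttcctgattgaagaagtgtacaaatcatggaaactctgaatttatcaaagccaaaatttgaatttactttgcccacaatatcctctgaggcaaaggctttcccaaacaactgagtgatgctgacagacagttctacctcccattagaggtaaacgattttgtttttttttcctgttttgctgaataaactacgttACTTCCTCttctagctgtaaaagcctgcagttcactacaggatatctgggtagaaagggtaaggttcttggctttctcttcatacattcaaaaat
S1pr2, chr9:20976744-20977043, minus strand: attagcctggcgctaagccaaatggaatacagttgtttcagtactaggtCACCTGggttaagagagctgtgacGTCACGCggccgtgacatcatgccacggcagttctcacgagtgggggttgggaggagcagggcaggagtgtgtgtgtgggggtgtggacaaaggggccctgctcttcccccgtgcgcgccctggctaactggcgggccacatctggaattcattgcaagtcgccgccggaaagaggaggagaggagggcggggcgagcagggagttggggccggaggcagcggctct

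The levels are log2 signals, and no call of presence or absence comes with them, so the rank of the mean among all probe sets is given for some of the genes. Over all arrays S1pr2 ranked at the 77.3rd percentile and Lpar6 at the 85.1st. Array medians lay between 4.21 and 4.27. The transductions of PAX5-WT, PAX5-G183S and MIR had the numbers 34 to 44 and 58 to 66, apart from PAX5-G183S replicate 4 with number 45, while those of PAX5-G183V, PAX5-P80R and PAX5-Δ2-6 had 1 to 9 and 45 to 57. RNA of transductions up to number 44 formed isolation batch 1 and that of 45 to 66 isolation batch 2, and PAX5-P80R and PAX5-Δ2-6 were run on plate 2 alone. Of 5 measured plasma cell markers all 5 lay above the 75th percentile, with means from 9.02 to 13.21, while 1 of 7 T cell, 0 of 7 myeloid, 0 of 6 fibroblast, 0 of 3 erythroid and 0 of 4 endothelial markers did. The T cell marker above it was Cd3g, at 8.24 to 8.35 in every group. MIR replicate 7 stood apart from the other vector arrays, with the scavenger receptor gene Cd36 at 5.89 and a group median of 3.71. Without it every receptor call against MIR given below stayed called.

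P2ry10 was higher in every array with PAX5-WT, PAX5-G183S or PAX5-G183V than in any MIR array, and its level in these 3 groups split into a low and a high range. In PAX5-WT arrays it was 4.12, 4.55, 4.25 and 3.56 in isolation batch 1 and 6.83, 5.88 and 6.68 in isolation batch 2. In PAX5-G183S arrays it was 3.62, 3.69 and 3.78 in isolation batch 1, 3.63 in replicate 4 of isolation batch 2, and 5.95, 6.23 and 6.65 in the other 3 arrays of that batch. In PAX5-G183V arrays it was 6.57, 6.47 and 6.11 in isolation batch 1, against 3.84, 3.53, 3.77 and 3.85 in isolation batch 2. The high range thus fell in the second batch for PAX5-WT and PAX5-G183S and in the first batch for PAX5-G183V.

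With the other 2 constructs P2ry10 lay near the vector's level. PAX5-P80R arrays had 2.88, 3.32, 3.04, 3.23, 3.07 and 3.38, and PAX5-Δ2-6 arrays 3.13, 3.38, 3.22, 3.16, 3.09 and 3.17. MIR arrays had 3.12, 3.14, 3.24, 3.04, 3.24, 3.14 and, in replicate 7, 3.51. The lowest of the 21 PAX5-WT, PAX5-G183S and PAX5-G183V arrays was 3.53, just above that replicate, and the next highest MIR array was 3.24.

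By transduction number the 9 high arrays had numbers 7 to 9 and 61 to 66 and lay between 5.88 and 6.83, while the 12 low ones had numbers 36 to 50 and lay between 3.53 and 4.55. No array of these 3 constructs lay between 4.55 and 5.88. Both ranges included arrays of both plates. The numbers 1 to 9 and 58 to 66 also held PAX5-P80R, PAX5-Δ2-6 and MIR arrays, none of them above 3.51. The high level was seen in both isolation batches, in batch 1 with PAX5-G183V alone and in batch 2 with PAX5-WT and PAX5-G183S. Within 1 construct and 1 batch only PAX5-G183S replicate 4 parts the number ranges, which were drawn after the levels were seen. In batch 1 transduction number and construct cannot be told apart among these 3 constructs. What sets the ranges apart was not tested.

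**Figure D1:**
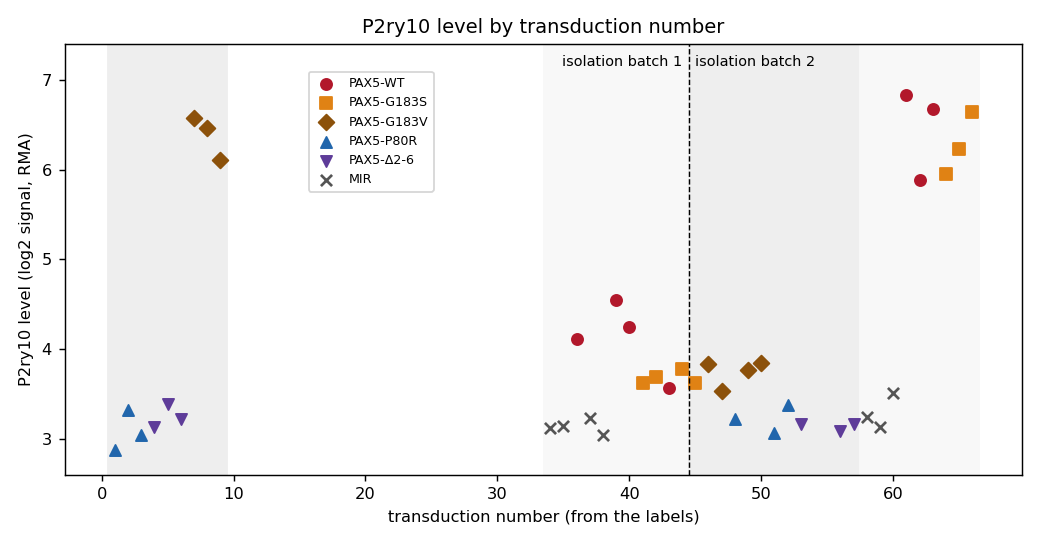
P2ry10 level (log2 signal) of each of the 40 arrays against the transduction number in the labels, with the construct as symbol and colour and the isolation batches parted by the dashed line. PAX5-WT, PAX5-G183S and PAX5-G183V arrays lie at 5.88 to 6.83 for numbers 7 to 9 and 61 to 66 and at 3.53 to 4.55 for numbers 36 to 50, and the other groups lie at 2.88 to 3.51 throughout.

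Group means of P2ry10 were 5.12 ± 1.32 in PAX5-WT, 4.88 ± 1.42 in PAX5-G183V and 4.79 ± 1.40 in PAX5-G183S (SD, n = 7 each), followed by 3.20 ± 0.15 in MIR (n = 7), 3.19 ± 0.10 in PAX5-Δ2-6 and 3.15 ± 0.19 in PAX5-P80R (n = 6 each). Neighbours in this order differed by less than their SD except at the step between PAX5-G183S and MIR. Among all probe sets the mean ranked at the 62.4th percentile in PAX5-WT arrays, at the 1.52nd in PAX5-P80R arrays and at the 3.07th in MIR arrays, so the vector level is among the lowest signals on the array. In bulk RNA a change in the share of cells that hold the transcript and a change of transcript per cell cannot be told apart. Fitted with plate and isolation batch, P2ry10 was 1.92 ± 0.51 higher in PAX5-WT than in MIR on the log2 scale (SE). That value averages the low and the high range, and with MIR among the lowest signals it can be read only as a lower bound. The same difference was 1.54 ± 0.51 for PAX5-G183S and 1.63 ± 0.51 for PAX5-G183V, against -0.13 ± 0.57 for PAX5-P80R and -0.09 ± 0.57 for PAX5-Δ2-6. These SEs rest on a spread pooled over all groups, including those that split into a low and a high range. They do not measure the spread within PAX5-P80R, PAX5-Δ2-6 and MIR, whose SDs were 0.19, 0.10 and 0.15. Against PAX5-WT, PAX5-P80R differed by -2.05 ± 0.57 and PAX5-Δ2-6 by -2.01 ± 0.57, with every array below every PAX5-WT array. PAX5-G183V exceeded PAX5-Δ2-6, whose arrays come from the same transduction ranges, by 1.72 ± 0.57.

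These averages over both batches hide the size of the differences within a batch. In isolation batch 1 P2ry10 was 0.99 ± 0.32 higher in PAX5-WT than in MIR, 0.60 ± 0.35 in PAX5-G183S and 3.29 ± 0.35 in PAX5-G183V. In isolation batch 2 the same differences were 3.17 ± 0.37, 2.28 ± 0.35 and 0.41 ± 0.35. For PAX5-P80R they were -0.17 ± 0.36 in batch 1 and -0.23 ± 0.39 in batch 2, and for PAX5-Δ2-6 -0.01 ± 0.36 and -0.31 ± 0.39. The plate term and the spread behind these values are shared by all groups. The 2.28 of PAX5-G183S in isolation batch 2 itself averages the low replicate 4, at 3.63, with 3 high arrays that averaged 6.27. Its SE does not measure that spread, whose SD was 1.35. Means of the arrays in batches 1 and 2 were 3.08 and 3.22 in PAX5-P80R, 3.25 and 3.14 in PAX5-Δ2-6, and 3.13 and 3.30 in MIR. Without MIR replicate 7 the difference over both batches was 1.93 ± 0.54 for PAX5-WT.

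The B cell genes Ms4a1 and Fcgr2b, named after their values were seen, moved the other way across the same transduction ranges. Slamf6, picked below by its likeness to P2ry10, was high in the same batches as P2ry10. Cd36 averaged 10.36 in PAX5-WT arrays of transductions 58 to 66 and 10.34 in those of 34 to 44. In PAX5-G183S arrays Cd36 averaged 9.83 for 58 to 66 and 10.31 for 34 to 44. In PAX5-G183V arrays it averaged 9.72 for 1 to 9 and 10.66 for 45 to 57. Ms4a1, which encodes CD20, averaged 8.51 in PAX5-WT arrays of transductions 58 to 66 and 9.51 in those of 34 to 44. In PAX5-G183S arrays Ms4a1 averaged 7.98 for 58 to 66 and 9.43 for 34 to 44, and in PAX5-G183V arrays 7.97 for 1 to 9 and 9.35 for 45 to 57. Fcgr2b, whose product restrains B cell receptor signals, had means of 8.87 and 9.86 in the same 2 ranges of PAX5-WT, 7.67 and 9.17 in PAX5-G183S, and 8.09 and 8.89 in PAX5-G183V. Both genes were thus lower in each range where P2ry10 was high, and their part in the P2ry10 pattern was not tested. The difference between the 3′ and 5′ probe sets of actin, a sign of RNA integrity, was slightly larger in the batch with high P2ry10 of each construct. It averaged 0.901 in isolation batch 2 and 0.890 in isolation batch 1 of PAX5-WT, 0.863 and 0.826 in the same batches of PAX5-G183S, and 0.860 and 0.901 in those of PAX5-G183V. The arrays of the batches overlapped in PAX5-WT and PAX5-G183V. In PAX5-G183S replicate 4, with low P2ry10 in isolation batch 2, the actin difference was 0.8445, against 0.8402 in replicate 6 with high P2ry10. The same difference for Gapdh overlapped between batches in each of these constructs. The part of RNA quality in the P2ry10 pattern was not tested.

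**Figure D2:**
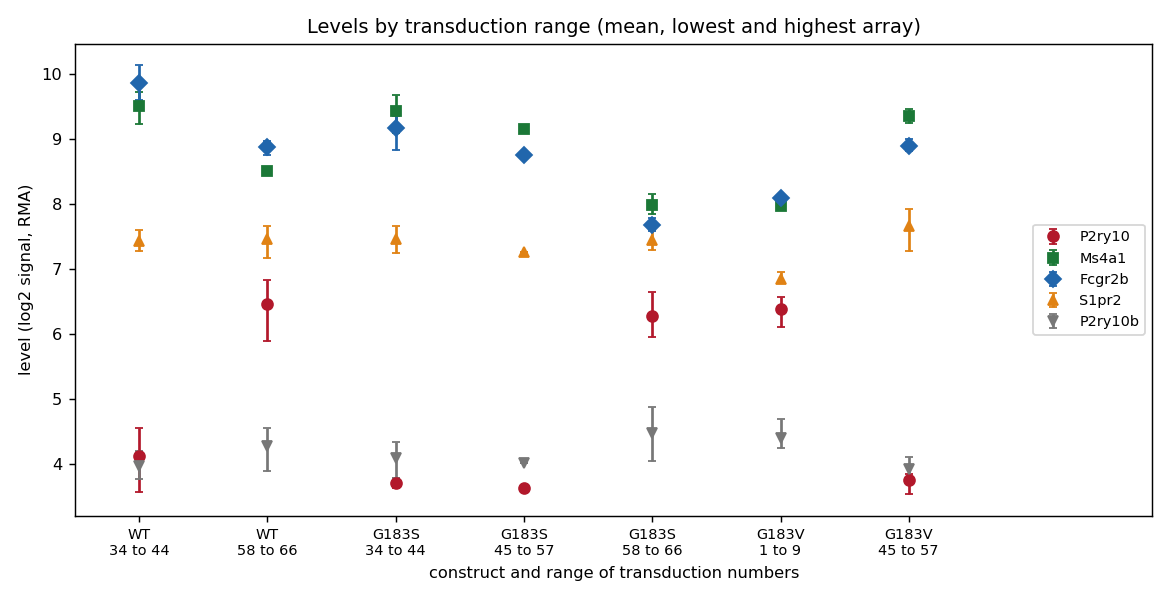
Level (log2 signal) of P2ry10, Ms4a1, Fcgr2b, S1pr2 and P2ry10b in arrays of PAX5-WT, PAX5-G183S and PAX5-G183V, split by the range of transduction numbers, with points at the mean and bars from the lowest to the highest array. P2ry10 is high in 3 of the 7 subsets, with means of 6.46, 6.27 and 6.38, and Ms4a1 and Fcgr2b are lower there than in the other subsets of the same construct.

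P2ry10b, the gene next to P2ry10 on chromosome X and a near relative, was named by its position and was tested. Its mean over all arrays ranked at the 38.2nd percentile. Its signals lay near background, within the range of 3.26 to 5.28 of the fibroblast and myeloid markers. It was higher than in MIR with the same 3 constructs. Levels of P2ry10b, as lowest, median and highest, were 3.76, 4.00 and 4.54 in PAX5-WT, 3.78, 4.14 and 4.87 in PAX5-G183S and 3.79, 4.10 and 4.69 in PAX5-G183V, against 3.32, 3.45 and 3.65 in MIR. All arrays of the 3 constructs lay above all MIR arrays. The rise was 0.63 ± 0.13 for PAX5-WT (limma adjusted p = 0.00237), 0.77 ± 0.13 for PAX5-G183S (0.000185) and 0.65 ± 0.13 for PAX5-G183V (0.0015). With plate 2 alone none of the 3 calls held (adjusted p = 0.159 for PAX5-WT, 0.145 for PAX5-G183S and 0.454 for PAX5-G183V). The calls of PAX5-WT (0.0799) and PAX5-G183S (0.0544) were also lost in isolation batch 1 alone, and that of PAX5-G183V in isolation batch 2 alone (0.154) and with 4 transduction ranges in the fit (0.38). The share of all 45141 probe sets called at an adjusted p under 0.05 was 3.85% for PAX5-WT, 3.73% for PAX5-G183S and 5.73% for PAX5-G183V against MIR.

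In PAX5-P80R arrays P2ry10b lay at 3.29, 3.51 and 3.82 and in PAX5-Δ2-6 arrays at 3.52, 3.65 and 3.86. Neither passed against MIR, with differences of 0.08 (95% interval -0.23 to 0.38) and 0.22 (-0.08 to 0.53). PAX5-P80R was below PAX5-WT at -0.55 ± 0.15 (limma adjusted p = 0.0246), but the call was lost without PAX5-WT replicate 7 (-0.44, adjusted p = 0.125), PAX5-P80R replicate 1 (-0.51, 0.0591) or PAX5-P80R replicate 3 (-0.51, 0.0579). It was also lost on plate 2 alone (-0.65, limma adjusted p = 0.0568), the only plate of PAX5-P80R, and in isolation batch 1 alone (-0.39, 0.248). The replicate block (-0.71, 0.135), only the 2 groups compared (-0.66, 0.0579) and 4 transduction ranges (-0.34, 0.964) lost it too. By isolation batch P2ry10b changed by 0.47 and 0.85 in PAX5-WT, by 0.59 and 0.93 in PAX5-G183S and by 0.90 and 0.49 in PAX5-G183V for batches 1 and 2. The order of the batches was that of P2ry10, but the difference between batches did not pass in any of the 3 (limma adjusted p of 1, 1 and 0.622). After removal of plate and isolation batch effects the 2 genes had r = 0.789 over the 40 arrays, which share the same groups and transduction ranges. Whether their probes cross-detect each other was not tested.

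**Figure D3:**
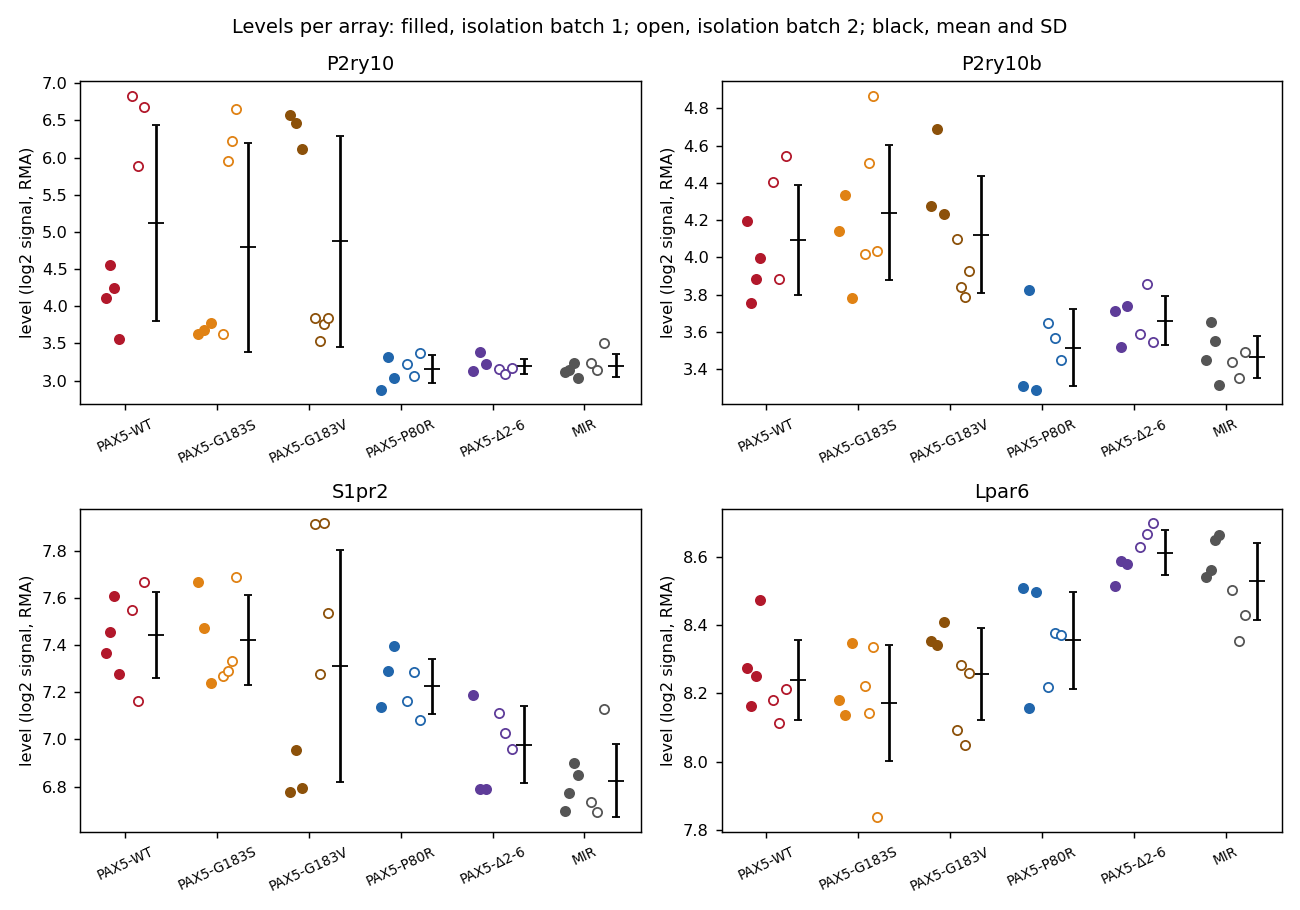
Level (log2 signal) per array of P2ry10, P2ry10b, S1pr2 and Lpar6 in the 6 groups, filled for isolation batch 1 and open for isolation batch 2, with the mean and SD in black. P2ry10 splits by batch in opposite directions in PAX5-WT and PAX5-G183V, S1pr2 in PAX5-G183V lies at 7.28 to 7.92 in batch 2 and at 6.78 to 6.96 in batch 1, and Lpar6 has its lowest means in the first 3 groups.

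S1pr2 had the second highest signal of the members and was above MIR with the same 3 constructs whose arrays all exceeded MIR in P2ry10. Its lowest, median and highest levels were 7.17, 7.46 and 7.67 in PAX5-WT, 7.24, 7.33 and 7.69 in PAX5-G183S, and 6.78, 7.28 and 7.92 in PAX5-G183V, against 6.69, 6.78 and 7.13 in MIR. PAX5-WT and PAX5-G183S arrays lay wholly above the MIR arrays, and the PAX5-G183V arrays overlapped them. S1pr2 rose by 0.62 ± 0.12 in PAX5-WT (limma adjusted p = 0.00111), by 0.58 ± 0.12 in PAX5-G183S (0.00274) and by 0.46 ± 0.12 in PAX5-G183V (0.0169), that is 1.53-fold, 1.49-fold and 1.38-fold. The PAX5-G183V call was lost without replicate 4 (adjusted p = 0.0589) or replicate 6 (0.0583), with only these 2 groups in the fit (0.0796), in isolation batch 1 alone (0.03, 0.964), on plate 2 alone (0.39, 0.504) and with 4 transduction ranges (0.73, 0.526). The PAX5-WT and PAX5-G183S calls were both lost on plate 2 alone (0.56, adjusted p = 0.195, and 0.39, 0.479) and in isolation batch 2 alone (0.61, 0.0659, and 0.50, 0.111).

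PAX5-P80R lay between PAX5-WT and MIR in S1pr2, and PAX5-Δ2-6 lay near MIR. Levels were 7.08, 7.22 and 7.39 in PAX5-P80R and 6.79, 7.00 and 7.19 in PAX5-Δ2-6. The PAX5-P80R arrays differed from neither end past the threshold, with 0.31 ± 0.14 against MIR (adjusted p = 0.297; 95% interval 0.03 to 0.59) and -0.30 ± 0.14 against PAX5-WT (0.249; -0.58 to -0.03). In PAX5-Δ2-6 S1pr2 was 0.06 above MIR (-0.21 to 0.34), and it was below PAX5-WT at -0.55 ± 0.14 (limma adjusted p = 0.0115), a call kept in 11 of 15 alternatives. By group means the order was PAX5-WT (7.44), PAX5-G183S (7.42), PAX5-G183V (7.31), PAX5-P80R (7.23), PAX5-Δ2-6 (6.98) and MIR (6.83), with neighbours closer than the larger of their SDs except PAX5-P80R and PAX5-Δ2-6, whose difference did not pass (adjusted p = 0.532).

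With PAX5-G183V the S1pr2 values of the isolation batches lay apart. Its levels were 6.78, 6.96 and 6.80 in isolation batch 1, within the range of MIR, and 7.91, 7.28, 7.92 and 7.54 in isolation batch 2, above every MIR array. The change was 0.06 ± 0.14 in batch 1 and 0.79 ± 0.14 in batch 2. The difference of 0.73 ± 0.20 between batches missed the threshold (limma adjusted p = 0.0937).  Across the batches of PAX5-G183V, S1pr2 was thus low in the transductions where P2ry10 was high. PAX5-WT showed no such split in S1pr2, with changes of 0.62 ± 0.13 and 0.61 ± 0.15, nor did PAX5-G183S, with 0.67 ± 0.14 and 0.52 ± 0.14. Over the 40 arrays, with plate and batch effects removed, S1pr2 had r = 0.258 with P2ry10.

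Lpar6, with the highest signal of the members, was lower than in MIR with the 3 constructs that raised S1pr2. Lowest, median and highest levels of Lpar6 were 8.11, 8.21 and 8.47 in PAX5-WT, 7.84, 8.18 and 8.35 in PAX5-G183S and 8.05, 8.28 and 8.41 in PAX5-G183V, against 8.35, 8.54 and 8.66 in MIR. Only the PAX5-G183S arrays lay wholly below the MIR arrays. Lpar6 fell by 0.29 ± 0.07 in PAX5-WT (limma adjusted p = 0.00452), fell by 0.34 ± 0.07 in PAX5-G183S (0.000679) and fell by 0.26 ± 0.07 in PAX5-G183V (0.0114). Within batches 1 and 2 the differences were -0.31 and -0.26 in PAX5-WT, -0.37 and -0.30 in PAX5-G183S, and -0.23 and -0.26 in PAX5-G183V, without the wide split of P2ry10. All 3 calls were lost on plate 2 alone (adjusted p = 0.518 for PAX5-WT, 0.256 for PAX5-G183S and 0.403 for PAX5-G183V) and in isolation batch 2 alone (0.468, 0.265 and 0.179). That of PAX5-G183V was also lost in isolation batch 1 alone (0.329), with 3 transduction series (0.0558) and with 4 ranges (0.576).

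In PAX5-Δ2-6 Lpar6 had the highest group mean, with levels of 8.51, 8.61 and 8.70, and in PAX5-P80R the levels were 8.16, 8.37 and 8.51. Against MIR neither passed, at 0.06 ± 0.07 for PAX5-Δ2-6 (adjusted p = 0.902) and -0.19 ± 0.07 for PAX5-P80R (0.182). All PAX5-Δ2-6 arrays lay above all PAX5-WT arrays, with a difference of 0.35 ± 0.07 (limma adjusted p = 0.00173), a call kept in 10 of 15 alternatives. All PAX5-G183V arrays lay below all PAX5-Δ2-6 arrays, which come from the same ranges of transduction numbers, at -0.32 ± 0.07 (0.00641). That call was lost in isolation batch 1 alone (-0.11, limma adjusted p = 0.715) and on plate 2 alone (-0.36, 0.114). It was also lost with the replicate block (-0.31, 0.0773) and with only the 2 groups compared (-0.36, 0.059). PAX5-P80R arrays were also all below those of PAX5-Δ2-6, at -0.26 ± 0.07 (0.0473), a call that was lost in 9 of 12 fits that left out 1 array of either group, in which the difference ran between -0.29 and -0.21.

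The group means of Lpar6 ran from 8.61 ± 0.07 in PAX5-Δ2-6 and 8.53 ± 0.11 in MIR over 8.36 ± 0.14 in PAX5-P80R, 8.26 ± 0.13 in PAX5-G183V and 8.24 ± 0.12 in PAX5-WT to 8.17 ± 0.17 in PAX5-G183S (SD), and neighbours differed by less than the larger SD except MIR and PAX5-P80R. Lpar6 lies within the span of Rb1, the retinoblastoma tumour suppressor gene, on chromosome 14. The brighter of 2 Rb1 probe sets rose by 0.34 ± 0.08 in PAX5-WT (limma adjusted p = 0.00636) and by 0.38 ± 0.08 in PAX5-G183S (0.00212), did not pass in PAX5-G183V (0.21 ± 0.08, 0.13), and fell by 0.40 ± 0.09 in PAX5-P80R (0.00708). In PAX5-Δ2-6, where no probe set passed against MIR, it averaged 7.69 with its highest array at 7.825. The MIR arrays averaged 7.92 with the lowest at 7.829. The second Rb1 probe set passed against MIR with no construct. The host gene and Lpar6 differed in sign with PAX5-WT, and this Rb1 probe set had r = 0.722 with P2ry10 over the 40 arrays. Whether probes of 1 detect transcripts of the other was not tested.

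The other 5 members, S1pr1, S1pr3, S1pr4, Gpr183 and Gpr174, stayed near background with every construct. Their 7 probe sets averaged between 3.21 (Gpr174, at the 3.04th percentile) and 4.49 (a Gpr183 probe set, at the 55.3rd), within or near the range of 3.26 to 5.28 of the fibroblast and myeloid markers. S1pr1 had group means from 3.76 to 3.90, against 3.79 in MIR, and Gpr174 from 3.10 to 3.25, against 3.24 in MIR. The widest difference from MIR was 0.20 ± 0.12, in the brighter Gpr183 probe set with PAX5-Δ2-6. The dimmer Gpr183 probe set was 0.19 ± 0.09 higher in PAX5-WT, where the brighter was at 0.02 ± 0.11, so the 2 probe sets of the gene gave different values and neither passed. Gpr183 lies within the span of Ubac2, a gene of the endoplasmic reticulum, of which no probe set passed against MIR. At these signals a change in transcript would be hard to see, and the values do not show that the genes were unchanged.

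**Figure D4:**
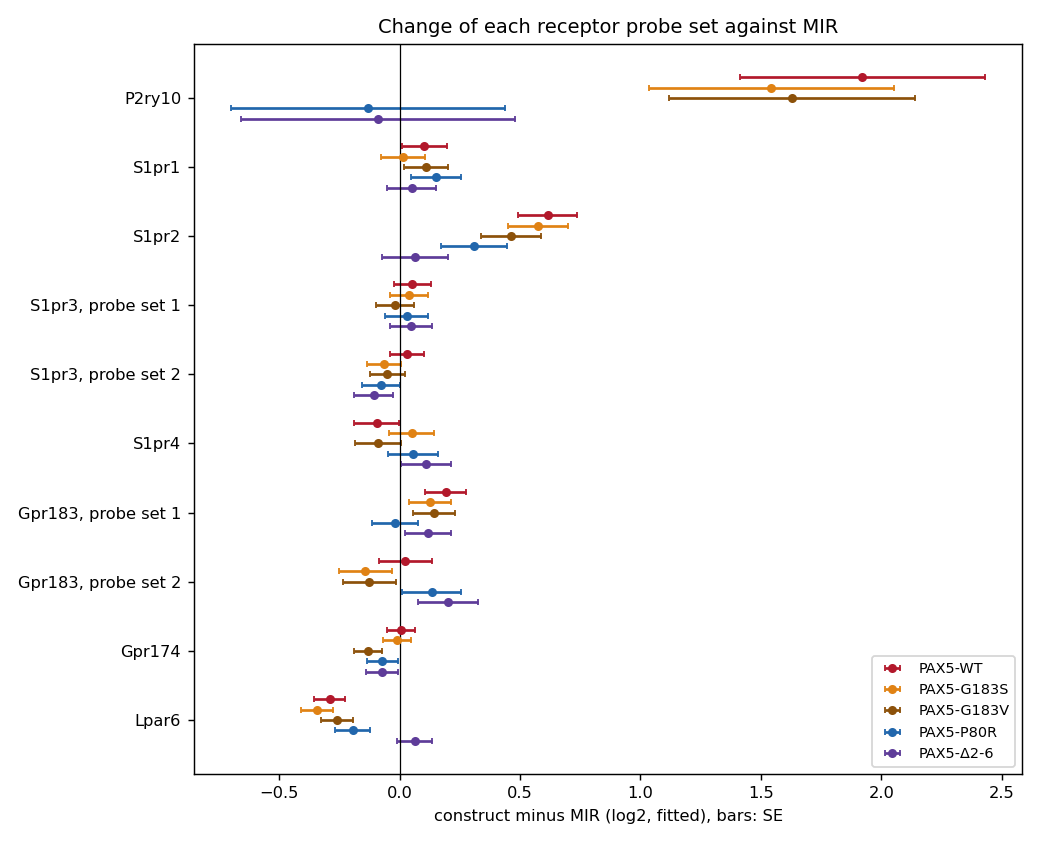
Fitted difference from MIR (log2) of each of the 10 member probe sets with each construct, with bars for the SE. P2ry10 and S1pr2 lie above 0 and Lpar6 below 0 for PAX5-WT, PAX5-G183S and PAX5-G183V, and the other 7 probe sets lie between -0.14 and 0.20.

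Counted over the 9 probe sets without P2ry10, 2 were called against MIR with PAX5-WT, 2 with PAX5-G183S and 2 with PAX5-G183V, S1pr2 up and Lpar6 down each time, beside the shares of all probe sets given above. S1pr2 was known from earlier results of these data to be higher with PAX5-WT. Its part in these counts is therefore not independent evidence, and the counts are not those of an unselected set. With PAX5-P80R 0 of 9 passed (limma, 2 with an unadjusted p under 0.05), where 2.55% of all probe sets did. With PAX5-Δ2-6 0 of 9 passed (0 with an unadjusted p under 0.05), and 0% of all probe sets, or 0 of 45141 with limma (3192 with an unadjusted p under 0.05). The median difference over the 9 lay between -0.05 and 0.06 in these 5 comparisons, against -0.00135 to 0.00319 over all probe sets. The 5 comparisons share the MIR arrays.

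Against PAX5-WT, 0 of 9 passed with PAX5-G183S (limma, 0 with an unadjusted p under 0.05; 0.0332% of all probe sets called) and 0 of 9 with PAX5-G183V (1 unadjusted; 0.0288%). With PAX5-P80R 0 of 9 passed against PAX5-WT (2 unadjusted; 4.09%), and with PAX5-Δ2-6 2 of 9, S1pr2 down and Lpar6 up (4.25%). Lpar6 was the only call of the 9 both for PAX5-P80R against PAX5-Δ2-6 (1.77% of all) and for PAX5-G183V against PAX5-Δ2-6 (3.07%). A test of the change between isolation batches called 0 of 9 with each construct (limma, 1 with an unadjusted p under 0.05, S1pr2 in PAX5-G183V). Over all probe sets that test called 0.00665% for PAX5-WT, 0% for PAX5-G183S (2090 with an unadjusted p under 0.05), 0.414% for PAX5-G183V, 0.308% for PAX5-P80R and 0.062% for PAX5-Δ2-6.

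**Figure D5:**
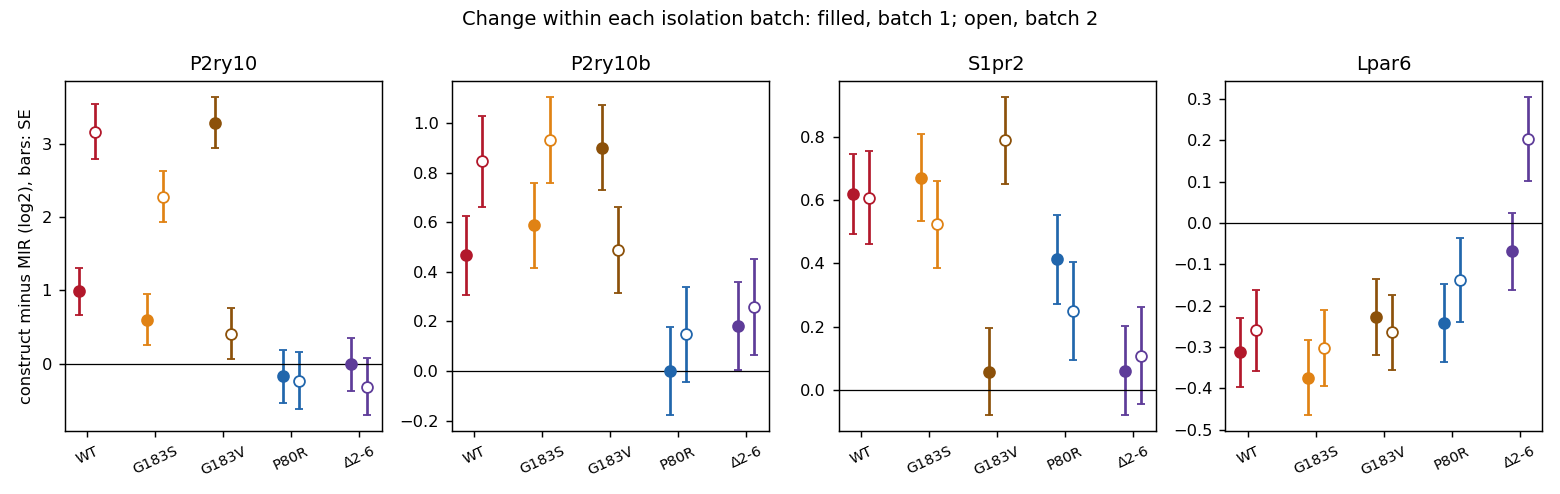
Difference from MIR (log2) within isolation batch 1 (filled) and isolation batch 2 (open) for P2ry10, P2ry10b, S1pr2 and Lpar6 with each construct, with bars for the SE and a separate scale per gene. P2ry10 reaches 3.17 in batch 2 with PAX5-WT and 3.29 in batch 1 with PAX5-G183V, while S1pr2 with PAX5-G183V is 0.06 in batch 1 and 0.79 in batch 2.

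The genes that make and clear the ligands were counted by list, and nothing is read from the counts beside the shares of all genes. With PAX5-WT 0 of 11 genes of sphingosine 1-phosphate metabolism and transport passed against MIR (limma, 3 with an unadjusted p under 0.05). Of 12 genes of lysophosphatidic acid and lysophosphatidylserine metabolism 1 fell, Mboat1, a lysophospholipid acyltransferase, at -0.47 ± 0.12 (adjusted p = 0.0183), and of 7 genes of oxysterol metabolism 1 fell, Hsd11b1, a steroid dehydrogenase, at -0.49 ± 0.13 (0.0154). Among all 17097 genes 2.94% rose and 2.24% fell with PAX5-WT.

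Among 21 other receptors of the same kind 2 rose and 1 fell with PAX5-WT. P2ry10b rose as given above, and Gpr65, a proton-sensing receptor of lymphocytes, rose by 0.95 ± 0.11 (limma adjusted p = 4.19e-08). P2ry14, a receptor for UDP-sugars, fell by 0.52 ± 0.09 (8.19e-05). Each of the 3 was also called in the same direction with PAX5-G183S and with PAX5-G183V, where Gpr65 rose by 0.93 and 0.91, and 0 of 21 were called with PAX5-P80R (limma, 3 with an unadjusted p under 0.05).

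Downstream of the receptors, 1 of 15 G protein and RhoGEF genes rose with PAX5-WT. It was Gna13, through which S1pr2 acts, at 0.28 ± 0.06 (limma adjusted p = 0.00318), and it rose by 0.24 in PAX5-G183S and by 0.29 in PAX5-G183V. Of 15 genes for RGS proteins, receptor kinases and arrestins, which end receptor signals, 1 fell. Rgs3, which speeds the shut-off of G proteins, fell by 0.78 ± 0.07 (2.88e-10), fell by 0.76 in PAX5-G183S and fell by 0.73 in PAX5-G183V. In PAX5-P80R Rgs3 fell by 0.38 ± 0.08 (0.00315), and Rgs18, another gene of the family, named after its value was seen, fell by 0.34 ± 0.07 (0.00312). Of 7 regulators of lymphocyte S1P receptors 0 passed with PAX5-WT (limma, 1 with an unadjusted p under 0.05).

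Over the 85 genes of these 7 lists, 7 were called with PAX5-WT, 5 with PAX5-G183S, 6 with PAX5-G183V, 2 with PAX5-P80R and 0 with PAX5-Δ2-6 (limma, 8 with an unadjusted p under 0.05). As shares these are 8.24%, 5.88%, 7.06%, 2.35% and 0%, beside 2.94% of all genes higher and 2.24% lower with PAX5-WT, 5.01% called with PAX5-G183S, 7.67% with PAX5-G183V, 3.62% with PAX5-P80R and 0% with PAX5-Δ2-6. The lists were chosen with earlier results known, and nothing is read from any of these shares about the pathway as a whole.

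The genes whose pattern was most like that of P2ry10 were ranked by Pearson r over the 40 arrays with plate and isolation batch effects removed, among 2388 probe sets with an SD of at least 0.25. Gng2, a G protein gamma subunit, came first with r = 0.891. It averaged 6.33 in isolation batch 2 and 4.67 in isolation batch 1 of PAX5-WT, and 4.50 and 5.97 in the same batches of PAX5-G183V, against 4.52 and 4.54 in MIR. It was followed by Slamf6, a lymphocyte surface receptor (0.867), Pde4b, a cyclic AMP phosphodiesterase (0.822), Nrp1, a receptor for semaphorins and VEGF (0.82), and Cd300a, an inhibitory receptor (0.807). The lowest values were those of Tusc1 (-0.8), Smpdl3b, a phosphodiesterase-like protein of the membrane (-0.769), and Grap2, an adaptor of lymphocyte receptors (-0.734). These arrays share groups and transduction ranges, so the ranking describes a common pattern across them. Of the other members Lpar6 had r = -0.496 and S1pr4 -0.346, and the rest lay between -0.284 and 0.258.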

How the data were processed

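Total RNA of 40 transductions was hybridised to Affymetrix arrays, 1 array each. The authors deposited log2 signals per probe set, made with RMA per the submitters' processing notes. Software versions: not given in the sources used here. The values were used as deposited. Gene names are those of the platform annotation: 28898 of 45141 probe sets carry 1 gene name, 551 carry more and 15692 carry no name. No 2 arrays were identical (highest r = 0.9969). Precision is set by how many arrays there are: the median SE for PAX5-WT against MIR was 0.0806.

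Groups, plates, isolation batches and transduction numbers came from the labels. Each probe set was fitted in limma 3.58.1 (R 4.3.3, statmod 1.5.0) with terms for 6 groups, 2 plates and 2 isolation batches. The Benjamini-Hochberg adjustment ran over the whole table within each of 11 comparisons, with calls under 0.05, and batch differences were tested as an interaction. The fit has no term for the transduction ranges. For lists the probe set of highest mean stood for a gene. The procedure was tested on simulated data.

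Members and lists were chosen with earlier results of these data known. Genes outside the members are named by rule: up to 4 list genes called with PAX5-WT, 5 most and 3 least like P2ry10, and chromosomal neighbours. Ms4a1, Fcgr2b, Cd36, Cd3g, Cd79b and Rgs18 were named after their values were seen. Genes of a list without a named probe set, and Itm2a, are not analysed here. Fibroblast, myeloid, erythroid, T cell and endothelial markers cover other cell types. The 7 B cell markers measured had a median of 4.26. Of these 1 lay above the 75th percentile over all arrays, Cd79b, with group means of 9.93 to 10.15. Ms4a1 averaged 9.08, 8.77 and 8.76 in PAX5-WT, PAX5-G183S and PAX5-G183V, against 3.79 in MIR.

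Replicate numbers are shared between groups. For PAX5-WT against MIR same-numbered arrays deviated from their group means together in 7 of 7 pairs (r from 0.16 to 0.236), and the labels give them the same plate and isolation batch. With those terms removed r lay between -0.0612 and -0.00125. Alternatives were no batch terms, single plates or batches, batch as a random block, the replicate block, 3 transduction series or 4 ranges (the last chosen after seeing the data), only the 2 groups compared, 1 probe set per gene, renewed normalization, dim probe sets left out, other variance models, array weights and each array left out.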

Additional observations from a re-analysis of the deposited data

Results flagged for a closer look

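In 4 of 60 combinations of a member probe set and a group 1 array lay far from the others, where chance gives about 1 in 20. P2ry10 was at 3.51 in MIR replicate 7, against 3.04 to 3.24 in the other 6 MIR arrays. The S1pr3 probe set with the higher signal was at 4.10 in PAX5-G183S replicate 6, against 4.45 to 4.70 in the others of that group. S1pr4 was at 4.96 in PAX5-Δ2-6 replicate 5, against 4.18 to 4.44. Lpar6 was at 7.84 in PAX5-G183S replicate 7, against 8.14 to 8.35.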

How the results depend on the processing

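Of 396 refits of the called differences in S1pr2, Lpar6 and P2ry10b, 331 kept direction and call, 65 kept the direction without the call and 0 reversed. These refits pool the alternative settings with fits that leave out a single array and so reuse nearly all of the data. The pooled counts therefore do not show how often the calls held across the settings alone. Of 2457 refits of uncalled receptor results 2 gained a call, both S1pr2 in PAX5-G183V against PAX5-Δ2-6, in isolation batch 2 alone (0.75, limma adjusted p = 0.00741) and without PAX5-G183V replicate 3 (0.53, adjusted p = 0.0207). Fewer arrays are fitted in the single plates and batches, and the cause of the other changes was not tested.

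Receptor probe sets called changed as follows. With plate 2 alone the counts against MIR were 0 for PAX5-WT, 0 for PAX5-G183S and 0 for PAX5-G183V, with 1 for PAX5-Δ2-6 against PAX5-WT, 0 for PAX5-P80R and 0 for PAX5-G183V against PAX5-Δ2-6. In isolation batch 1 alone PAX5-G183V had 0 against MIR and 0 against PAX5-Δ2-6, PAX5-P80R 0 against PAX5-Δ2-6, and PAX5-Δ2-6 1 against PAX5-WT. In isolation batch 2 alone the counts were 0 for PAX5-WT, 0 for PAX5-G183S and 1 for PAX5-G183V against MIR, 1 for PAX5-Δ2-6 against PAX5-WT, and 0 for PAX5-P80R and 2 for PAX5-G183V against PAX5-Δ2-6. With 3 transduction series PAX5-G183V against MIR gave 1 and PAX5-Δ2-6 against PAX5-WT 1, and with 4 ranges 0 and 0. With only the groups compared these were 1 and 1, and PAX5-P80R and PAX5-G183V against PAX5-Δ2-6 gave 0 and 0. PAX5-P80R against PAX5-Δ2-6 also gave 0 without batch terms, with batch as a random block, with arrays centred and with array weights. Receptor changes between batches numbered 1 with dim probe sets left out and 1 with trend and robust settings, and 0 to 1 with single arrays left out (1 without PAX5-G183V replicate 5).

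The P2ry10 difference from MIR was 0.99 in isolation batch 1, 3.17 in isolation batch 2 and 1.57 on plate 2 for PAX5-WT, and 0.53 in batch 1 for PAX5-G183S. For PAX5-G183V it was 3.22 in batch 1, 0.34 in batch 2, 1.17 on plate 2, 0.41 with 3 series, 2.47 with 4 ranges, 1.79 with array weights, 1.85 with only these groups, and 1.26 to 1.87 with single arrays left out. For PAX5-P80R it was 0.038, -0.51, -1.49 and 0.64, and for PAX5-Δ2-6 0.20, -0.60, -1.45 and 0.68, in batch 1, batch 2, 3 series and 4 ranges. The 4 ranges tie these 3 constructs to MIR through PAX5-G183S replicate 4 alone. Plate, batch and series terms are shared by all groups, including those whose P2ry10 arrays split. The PAX5-P80R, PAX5-Δ2-6 and MIR arrays themselves all lay between 2.88 and 3.51. Fitted values such as -1.49 and -1.45 are therefore not a measured difference between these groups.

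Pathway list genes called numbered 3, 2, 3 and 0 on plate 2 for PAX5-WT, PAX5-G183S, PAX5-G183V and PAX5-P80R. They were 1 for PAX5-P80R in batch 1, and 3 for PAX5-WT and 0 for PAX5-P80R in batch 2. With 3 series they were 12, 4 and 2 for PAX5-G183V, PAX5-P80R and PAX5-Δ2-6, with 4 ranges 1 and 0 for PAX5-G183V and PAX5-P80R. PAX5-G183V had 10 with array weights and 10 with dim probe sets left out, and PAX5-P80R 0 with only the groups compared.

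With the replicate block no call changed for PAX5-WT against MIR (2 of 9 receptor probe sets and 7 list genes). Same-numbered arrays of the other comparisons share plate and isolation batch in some or all pairs. In each of those comparisons the lowest r was smaller, from -0.164 (PAX5-P80R against MIR) to 0.0261 (PAX5-G183V against PAX5-Δ2-6). There the replicate block gave 1 receptor call for PAX5-G183V against MIR, 0 for PAX5-Δ2-6 against PAX5-WT, 0 for PAX5-G183V against PAX5-Δ2-6, 0 list genes for PAX5-P80R and a P2ry10 difference of 0.058 for PAX5-Δ2-6.

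With single arrays left out the receptor count ran from 1 to 2 for PAX5-G183V against MIR (1 without replicate 4 or 6), from 1 to 2 for PAX5-G183V against PAX5-Δ2-6 (2 without PAX5-G183V replicate 3) and from 0 to 1 for PAX5-P80R against PAX5-Δ2-6. It did not change in the other 8 comparisons. Signals near background limit 7 of the 10 member probe sets, and that of P2ry10b as well.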
